A study of Rattus norvegicus with 17 samples.

Results

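Liver expression of 5 rat genes, Sik2, Ptpn3, Ppp2r1b, Tfcp2 and Amacr, was compared over 4 doses of isopropylated phenol phosphate (IPP), a triaryl phosphate used as a flame retardant and plasticizer. On the brightest probe set of each gene it was already above vehicle at the smallest dose. A further probe set of Sik2 and of Tfcp2 differed from vehicle by only 0.06 and 0.07 (log2) at that dose. These 5 genes, of 14217 with a probe set of their own, were chosen by their measured differences from vehicle: they were called higher at all 4 doses and are neither circadian clock genes nor drug-metabolizing enzymes. Those differences are therefore described here with no test, and tests are kept for comparisons between doses. The choice did not use these comparisons, but it used the same dose means, so they are not independent of it. Male Harlan Sprague-Dawley rats were dosed by oral gavage once a day on 4 consecutive days, and a piece of the left liver lobe was taken on day 5 for a 3′ expression array. Vehicle rats were given corn oil alone (n = 5), and the other 12 rats were given IPP in corn oil at 76.5, 153, 305.5 or 611 mg/kg (n = 3 at each dose). The written protocol rounds 2 of these doses to 77 and 306 mg/kg and puts the range at 0.169 to 1.35 mmol/kg. All groups shared strain, sex, route and corn oil, and no age was used here. Each array came from 1 rat.

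The 5 genes stand in different pathways. Sik2 encodes a salt-inducible kinase, a relative of AMP-activated protein kinase that is switched on by the kinase Lkb1 (gene Stk11) and restrained by protein kinase A; it phosphorylates CRTC coactivators and class IIa histone deacetylases, which keeps them out of the nucleus and holds back fasting genes in liver. Ptpn3 encodes a cytosolic tyrosine phosphatase with FERM and PDZ domains, and Ppp2r1b encodes the beta form of the scaffold subunit on which protein phosphatase 2A (PP2A) is built. Tfcp2 encodes a transcription factor of the CP2 family, related to the grainyhead factors. Amacr encodes alpha-methylacyl-CoA racemase, an enzyme of peroxisomes and mitochondria that turns branched-chain acyl-CoAs and bile acid precursors into the form that beta-oxidation accepts.

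On the whole the 17 arrays were alike, and 3 stood apart. Rat 2 at 611 mg/kg had a difference between the 3′ and 5′ GAPDH control probe sets of 2.89 on the log2 scale, against 0.928 to 1.56 in the other 16 rats, a control for RNA integrity. Rats 2 and 3 at 76.5 mg/kg had median correlations with the other arrays of 0.987 and 0.986 and rat 2 at 611 mg/kg one of 0.984, against 0.991 to 0.993 in the other 14. Array medians lay between 6.29 and 6.40. Hepatocyte markers (7 of 8 listed were measured, Alb among them) averaged between 13.7 and 14.1 in all 17 rats, and 0 of them were called at any dose. Of 35 measured markers of 7 cell types, 0 were called at 76.5 or 153 mg/kg, 2 were lower at 305.5 mg/kg, and 1 was higher and 8 lower at 611 mg/kg. Over all genes, 0.753% were called higher and 1.47% lower at 305.5 mg/kg, and 5.04% higher and 2.42% lower at 611 mg/kg. At 611 mg/kg, 4 of 5 endothelial markers were lower than in vehicle, with a list mean of 8.88 to 8.99 at 611 mg/kg against 9.41 to 9.61 in vehicle rats, and 2 of 3 red cell markers were lower, with 7.98 to 8.69 against 9.26 to 9.46. The endothelial list mean was also below vehicle at 305.5 mg/kg, at 8.88 to 9.20. The stellate and fibroblast list was at 7.66 to 8.03 at 305.5 mg/kg and 7.77 to 7.95 at 611 mg/kg, against 8.07 to 8.44 in vehicle rats, and the lymphocyte list at 5.54 to 5.65 at 611 mg/kg against 5.69 to 5.87. At 76.5 and 153 mg/kg the means of all 7 lists overlapped vehicle. The part of these shifts in the values below was not tested. In bulk liver, fewer cells of a type and less RNA per cell cannot be told apart.

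Values are log2 signals of the brightest probe set of each gene. Sik2 signal was 7.65, 7.27, 7.62, 7.21 and 7.43 in the 5 vehicle rats, 8.10, 7.95 and 8.42 at 76.5 mg/kg, 8.17, 8.29 and 8.18 at 153 mg/kg, 8.52, 8.29 and 8.21 at 305.5 mg/kg, and 8.48, 8.71 and 8.38 at 611 mg/kg. The 12 treated rats all lay above the 5 vehicle rats, with 0.30 between the lowest treated and the highest vehicle rat. The difference from vehicle was 0.72, 0.77, 0.90 and 1.09 with rising dose (SE of the fit 0.13 at each), 1.65-fold at 76.5 mg/kg and 2.13-fold at 611 mg/kg. On this probe set the difference at the smallest dose was 66.0% of that at the highest on the log2 scale; on the brightest probe sets of Ptpn3, Ppp2r1b, Tfcp2 and Amacr it was 79.4%, 85.1%, 86.8% and 88.3%. Without the 3 arrays that stood apart, which leaves 1 rat at 76.5 mg/kg, these shares were 66.6% for Sik2, 69.7% for Ptpn3, 74.3% for Ppp2r1b, 95.3% for Tfcp2 and 67.8% for Amacr, so their order is not settled. On the other probe sets they were 14.5% for Sik2, 66.6% for Ptpn3, and 42.6% and 85.7% for Tfcp2. The choice asked for a call at 76.5 mg/kg, so high shares on the brightest probe sets follow in part from it. On the brightest Sik2 probe set neighbouring dose groups overlapped in their ranges, and no dose group overlapped vehicle.

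The gene Sik2 lies beside Ppp2r1b on rat chromosome 8, on the opposite strand, and the 3′ ends of the 2 genes overlap in the RefSeq annotation. Whether a probe set of one of them also reads RNA of the other was not tested. Their promoters are at opposite ends of the pair and are shown because the 2 genes were both above vehicle at every dose; each is RefSeq's window on GRCr8 of 250 bases before to 50 bases after the start. In Sik2 (chr8:60221601-60221900, minus strand) the capitals mark the 1 match found to TGACNNNGC, the core of the antioxidant response motif, on the opposite strand. Ppp2r1b (chr8:60092309-60092608, plus strand) has no capitals because none of the 6 motifs searched matched there.
Sik2 promoter: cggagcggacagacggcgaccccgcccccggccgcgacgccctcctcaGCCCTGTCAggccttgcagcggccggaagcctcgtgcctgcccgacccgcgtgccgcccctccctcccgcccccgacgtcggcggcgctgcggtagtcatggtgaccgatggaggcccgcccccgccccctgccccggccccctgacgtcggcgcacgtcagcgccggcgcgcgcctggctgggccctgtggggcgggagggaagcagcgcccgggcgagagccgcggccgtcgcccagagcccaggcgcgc
Ppp2r1b promoter: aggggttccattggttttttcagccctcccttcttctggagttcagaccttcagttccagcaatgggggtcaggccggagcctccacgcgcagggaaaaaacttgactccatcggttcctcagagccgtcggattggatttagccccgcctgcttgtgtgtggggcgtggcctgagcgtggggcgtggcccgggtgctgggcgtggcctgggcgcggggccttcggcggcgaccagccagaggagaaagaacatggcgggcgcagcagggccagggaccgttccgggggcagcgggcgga
The Sik2 window is 80.7% G and C and the Ppp2r1b window 66.0%, against a median of 52.3% over 27457 promoters. The letters TGACNNNGC are in 12.2% of those promoters, on either strand, so the match is a description of the sequence and does not show binding.

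Ppp2r1b signal was 7.69, 7.98, 7.90, 7.66 and 7.85 in vehicle rats, 8.39, 8.50 and 8.37 at 76.5 mg/kg, 8.45, 8.28 and 8.25 at 153 mg/kg, 8.66, 8.52 and 8.54 at 305.5 mg/kg, and 8.67, 8.40 and 8.50 at 611 mg/kg. All 12 treated rats were above all vehicle rats, by at least 0.28. The gene stood 0.60, 0.51, 0.76 and 0.71 above vehicle with rising dose (SE 0.10 at each), 1.52-fold at the smallest and 1.63-fold at the highest. The order of the dose means was 305.5, 611, 76.5 and 153 mg/kg from high to low, with neighbours in that order overlapping. The paralogue Ppp2r1a, the alpha form of the PP2A scaffold and the other one the complex can use, differed from vehicle by 0.17, -0.10, 0.01 and -0.18 with rising dose, and was called at 0 of the 4 doses.

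Ptpn3 signal was 8.73, 8.72, 8.95, 8.83 and 8.63 in vehicle rats, 9.53, 9.25 and 10.24 at 76.5 mg/kg, 9.49, 9.95 and 9.58 at 153 mg/kg, 9.74, 9.40 and 9.65 at 305.5 mg/kg, and 9.79, 10.01 and 9.92 at 611 mg/kg. The treated rats again all lay above the vehicle rats, and rat 3 at 76.5 mg/kg, one of the arrays that stood apart, was the highest of all 17. Ptpn3 was 0.90, 0.90, 0.83 and 1.13 above vehicle with rising dose (SE 0.17 at each), 1.87-fold at 76.5 mg/kg and 2.20-fold at 611 mg/kg. The dose means ran 611, 153, 76.5 and 305.5 mg/kg from high to low, and neighbours in that order overlapped. Without the 3 arrays that stood apart the difference at 76.5 mg/kg was 0.76 for Ptpn3, 0.66 for Sik2, 0.57 for Ppp2r1b, 0.57 for Tfcp2 and 0.43 for Amacr.

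Tfcp2 signal was 7.40, 7.58, 7.62, 7.66 and 7.53 in vehicle rats, 8.12, 8.21 and 8.07 at 76.5 mg/kg, 8.30, 8.32 and 8.19 at 153 mg/kg, 8.19, 8.43 and 8.38 at 305.5 mg/kg, and 8.22, 8.37 and 8.09 at 611 mg/kg. On the brightest probe sets its vehicle and treated rats were the farthest apart of the 5 genes, with a gap of 0.41. On its other probe sets, 1378218_at and 1391807_at, treated and vehicle rats overlapped, with gaps of -0.58 and -0.12. The probe set 1379350_at was the brightest by its mean over all rats, 8.04 against 7.88 for 1378218_at. In vehicle rats alone 1378218_at was the brighter of these, with a mean of 7.71 against 7.56. The pick of 1379350_at thus rested on the treated rats, and the gap of 0.41 is not independent of it. On 1379350_at the difference from vehicle was 0.58, 0.72, 0.78 and 0.67 with rising dose (SE 0.09 at each). This was 1.49-fold at 76.5 mg/kg and 1.59-fold at 611 mg/kg. The dose means ran 305.5, 153, 611 and 76.5 mg/kg from high to low, with overlapping neighbours.

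Amacr signal was 12.94, 12.85, 12.76, 12.59 and 12.58 in vehicle rats, 13.17, 13.32 and 13.40 at 76.5 mg/kg, 13.31, 13.59 and 13.20 at 153 mg/kg, 13.13, 13.06 and 13.15 at 305.5 mg/kg, and 13.33, 13.36 and 13.42 at 611 mg/kg. All treated rats were above all vehicle rats, with a gap of 0.12. The 305.5 mg/kg rats were the lowest of the treated rats, and the 9 rats at the other 3 doses all lay above them, a gap that was not tested. The dose means ran 611, 153, 76.5 and 305.5 mg/kg from high to low, and of these neighbours the last pair did not overlap. Amacr was 0.55, 0.62, 0.37 and 0.63 above vehicle with rising dose (SE 0.09 at each), 1.47-fold at 76.5 mg/kg and 1.55-fold at 611 mg/kg, and its smallest difference was the one nearest the limit of the choice. Its promoter is shown because Amacr is the 1 member with the half-site AGGTCA of many nuclear receptors, in capitals (GRCr8, chr2:61673085-61673384, plus strand).
Amacr promoter: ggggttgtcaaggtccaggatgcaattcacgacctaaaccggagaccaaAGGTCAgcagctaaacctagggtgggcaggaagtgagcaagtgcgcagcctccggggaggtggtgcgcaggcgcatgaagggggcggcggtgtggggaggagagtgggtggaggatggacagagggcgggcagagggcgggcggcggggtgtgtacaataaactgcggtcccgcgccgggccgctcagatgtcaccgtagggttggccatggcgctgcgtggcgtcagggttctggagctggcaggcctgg
AGGTCA is in 15.7% of the 27457 promoters. The other motifs searched on both strands had no match in the 5 promoters: CACGTG, the E-box of the clock factors, is in 6.65% of all promoters, TTATGTAA and TTACGTAA of the PAR-domain factors such as Dbp in 0.881% and 0.127%, and TGACGTCA, the full cAMP response element, in 1.91%. No match says only that these letters are not in this window.

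**Figure D1:**
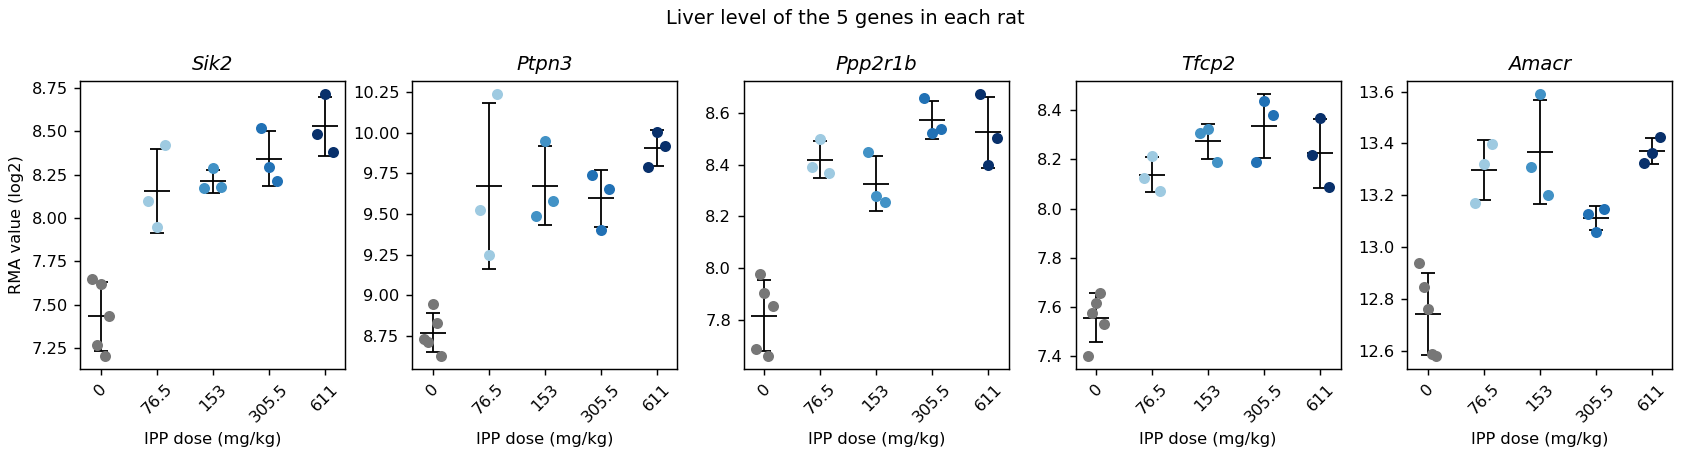
Log2 signal of the brightest probe set of each of the 5 genes in each of the 17 rats (points, with the group mean and bars for the SD), from vehicle to 611 mg/kg IPP. In each gene the 12 treated rats sit above the 5 vehicle rats, with gaps of 0.30, 0.30, 0.28, 0.41 and 0.12 in Sik2, Ptpn3, Ppp2r1b, Tfcp2 and Amacr.

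Of all genes, 78 of the 14217 genes (0.549%) had all 12 treated rats above all 5 vehicle rats, and 12 genes (0.0844%) were called higher at all 4 doses. Since the 5 genes were taken from these, nothing is read from that share. Of the 12, Nr1d1, Nr1d2 and Dbp are clock genes and Ces2c, Abcc3 and Ugt2b1 drug-handling genes. The sixth gene outside those groups was Tbx3, which is not one of the 5. Amacr was the gene just inside the threshold, with a largest adjusted p of 0.0490, at 305.5 mg/kg. Just outside were Oaf, with 0.0539 at 76.5 mg/kg and differences of 0.72, 1.14, 1.09 and 0.91, and Acbd6, with 0.0783 at 153 mg/kg. These limma values are the ones that made the choice and are given as a description. In the fit over all genes, 20 genes were called higher and 18 lower at 76.5 mg/kg, which is 0.141% and 0.127% of those tested and 0.267% together.

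The array carries 9 probe sets for the 5 genes, and they did not all move alike. The brightest ones were 1376649_at for Sik2, 1389362_at for Ptpn3, 1373959_at for Ppp2r1b, 1379350_at for Tfcp2 and 1367775_at for Amacr. The second Ptpn3 probe set (1376537_at) was above all vehicle rats in 12 of 12 treated rats, at 0.67, 0.85, 0.63 and 1.01 with rising dose. The second Sik2 probe set (1394434_at), with a mean signal of 5.94 over all rats, was 0.06, 0.31, 0.42 and 0.41 above vehicle, and 8 of 12 treated rats were above all vehicle rats. On this probe set Sik2 at 76.5 mg/kg overlapped vehicle, with 5.62, 5.73 and 6.005 at 76.5 mg/kg against 5.88, 5.98, 5.75, 5.53 and 5.48 in vehicle rats. Tfcp2 has 2 further probe sets: 1391807_at was 0.35, 0.50, 0.68 and 0.40 above vehicle, with 10 of 12 treated rats above all vehicle rats, and 1378218_at 0.07, 0.32, 0.42 and 0.17, with 3 of 12. The mean over a gene's probe sets put Sik2 at 0.39, 0.54, 0.66 and 0.75 and Tfcp2 at 0.33, 0.51, 0.63 and 0.41 above vehicle. For Sik2 and Tfcp2 the level at the smallest dose differed between their probe sets. Which transcripts each probe set reads was not used here, and Ppp2r1b and Amacr have 1 probe set each.

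**Figure D2:**
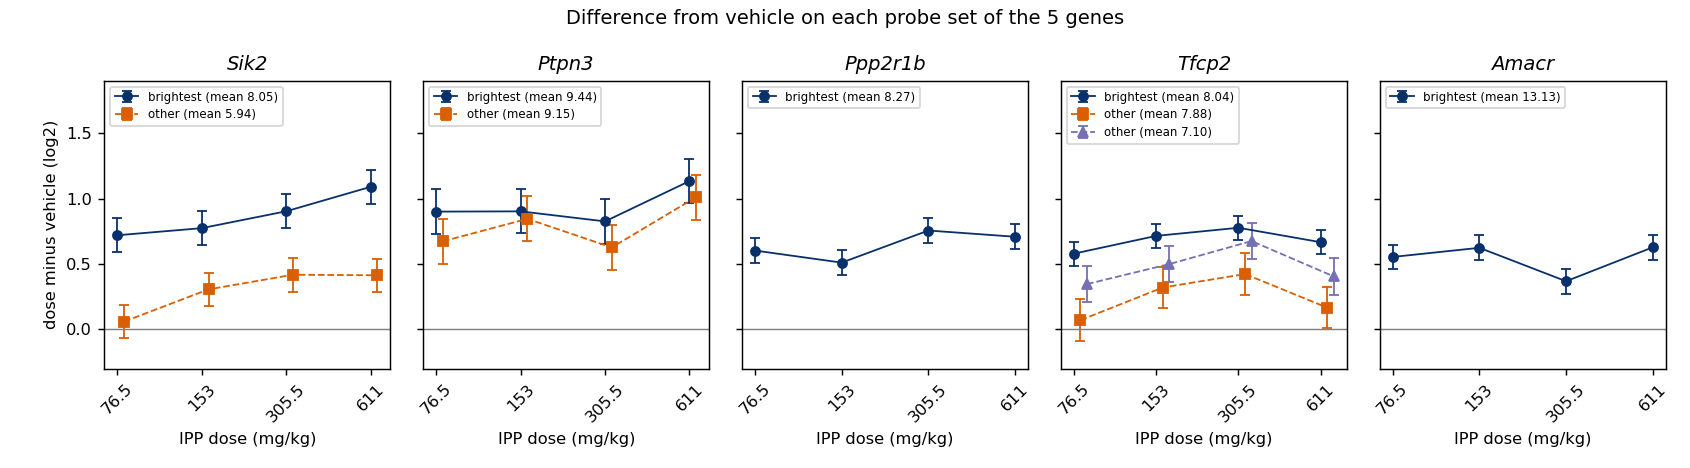
Difference from vehicle (log2) at each dose of every probe set of the 5 genes, 9 in all, with the brightest of each gene marked in the legend and bars for the SE of the fit. The brightest probe sets lie between 0.37 and 1.13 at all doses. The other Sik2 probe set and the Tfcp2 probe set 1378218_at start at 0.06 and 0.07 at 76.5 mg/kg.

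Whether levels differed between doses was tested among the treated rats alone, with a slope over the 4 doses in log2 per dose step (each step about doubles the dose) and with 611 minus 76.5 mg/kg. The slope passed an adjusted p of 0.05 in 92 genes upward (0.647%) and 55 downward (0.387%), 1.03% together, and the difference in 159 (1.12%) and 56 (0.394%), 1.51% together. Among the 5 genes 0 passed either test by limma. A gene near vehicle at 76.5 mg/kg could not enter the choice, so their slopes and differences are not free of it. Of the 5, Sik2 had the steepest slope, 0.12 ± 0.05 per step (95% interval 0.03 to 0.22; adjusted p = 0.210), and differed by 0.37 ± 0.14 between 611 and 76.5 mg/kg (0.07 to 0.67; adjusted p = 0.193); its unadjusted p was 0.0139 for the slope and 0.0190 for the difference. Ptpn3 had a slope of 0.06 (-0.06 to 0.19) and Ppp2r1b of 0.06 (-0.01 to 0.13). For Tfcp2 it was 0.03 (-0.04 to 0.10), and for Amacr -0.003 (-0.07 to 0.07). Their adjusted p-values ran from 0.470 to 0.975. The interval for 611 minus 76.5 mg/kg reached 0.63 in Ptpn3, 0.33 in Ppp2r1b, 0.30 in Tfcp2 and 0.29 in Amacr, so rises up to these sizes lie within the intervals. These values moved with single arrays. Without the 3 stand-apart arrays 611 minus 76.5 mg/kg was 0.33 in Sik2, 0.33 in Ptpn3, 0.20 in Ppp2r1b, 0.03 in Tfcp2 and 0.20 in Amacr, against 0.37, 0.23, 0.11, 0.09 and 0.07 with all arrays. Leaving out 1 rat gave 0.27 to 0.50 in Sik2, 0.02 (without 76.5 mg/kg rat 2) to 0.52 (without 76.5 mg/kg rat 3; adjusted p = 0.0994) in Ptpn3, 0.03 (without 611 mg/kg rat 1) to 0.17 (without 611 mg/kg rat 2) in Ppp2r1b, 0.02 (without 611 mg/kg rat 2) to 0.16 (without 611 mg/kg rat 3) in Tfcp2, and 0.01 (without 76.5 mg/kg rat 1) to 0.12 (without 76.5 mg/kg rat 3) in Amacr. The intervals above are those with all arrays. Vehicle rats entered these tests only through the estimate of the spread. The smallest adjusted p in any other setting was 0.0705, for 611 minus 76.5 mg/kg in Sik2.

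Set beside these, Ces2c, a carboxylesterase of drug and ester metabolism, climbed by 0.54 ± 0.05 per step (adjusted p = 0.000238) and was 1.501 higher at 611 mg/kg than at 76.5 mg/kg. Dbp, a clock output factor, climbed by 0.62 ± 0.13 per step (adjusted p = 0.0337). Nr1d1, a clock repressor, had a slope of 0.12 (adjusted p = 0.484). The slopes of the 5 genes were not tested against these.

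**Figure D3:**
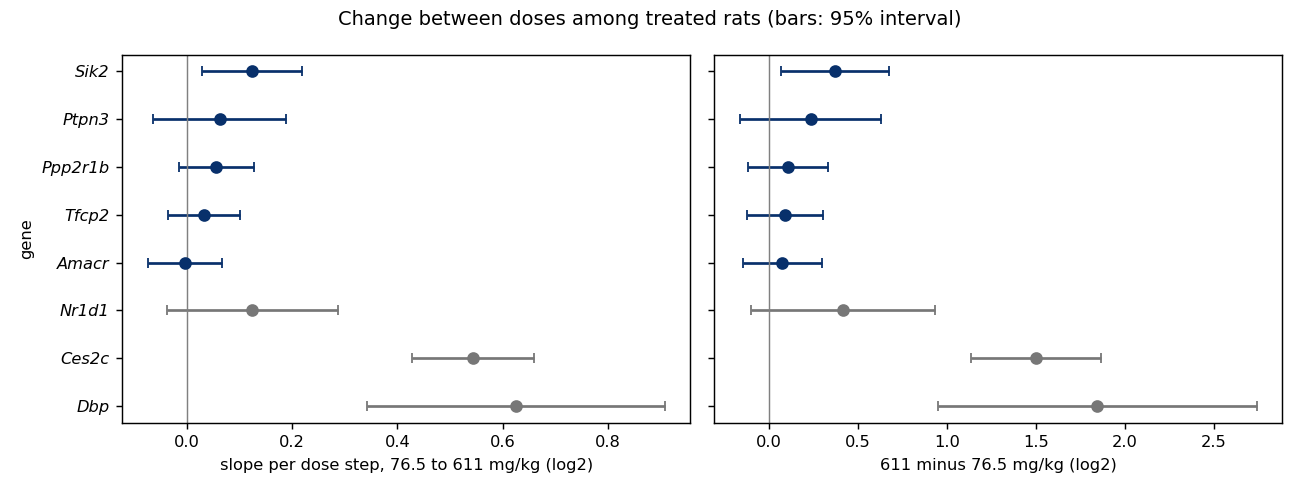
Slope per dose step (left) and 611 minus 76.5 mg/kg (right), both in log2, with 95% intervals, for the 5 genes and for Ces2c, Dbp and Nr1d1. The 5 genes lie between -0.003 and 0.12 per step, Nr1d1 at 0.12, and Ces2c and Dbp at 0.54 and 0.62.

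The genes were compared by the correlation of their levels over the 17 arrays, which share dose groups and array quality, so high values are a description of likeness only. Closest to Sik2 were Txndc11 (r = 0.934), Cers6, a ceramide synthase (0.932), and Ptpn3 (0.922). Closest to Ptpn3 were Trappc13 (0.924), Pxk (0.922) and Sik2. Ppp2r1b was closest to Nr1d1 (0.924), Aldh1a1, a retinal dehydrogenase (0.924), and Nr1d2 (0.920), and Tfcp2 to Nr1d2 (0.943), Nr1d1 (0.938) and Dbp (0.928). Amacr was closest to Rbp2, a retinol-binding protein (0.875), Ptpn3 (0.874) and Nudt6 (0.872). Once group means were removed, the correlation of Tfcp2 with the clock genes was -0.04 with Nr1d1, 0.26 with Nr1d2 and 0.42 with Dbp. Ppp2r1b had 0.35 with Nr1d1, 0.34 with Nr1d2 and 0.79 with Aldh1a1. Sik2 had 0.69 with Txndc11 and 0.65 with Cers6, and Ptpn3 had 0.82 with Pxk and 0.70 with Trappc13. For Amacr it was 0.50 with Rbp2 and 0.53 with Nudt6. All of these include the 3 arrays that stood apart. Sik2 and Ptpn3 kept 0.63 over the 17 arrays and 0.31 over the 13 left without the stand-apart arrays and the lone 76.5 mg/kg rat. Ptpn3 and Amacr had 0.43, and 0.52 over those 13. The other 8 pairs lay between -0.29 and 0.38 over 17 arrays and between -0.52 (Sik2 and Tfcp2, -0.29 over 17) and 0.41 (Sik2 and Amacr) over the 13.

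Genes next to the members were examined in the RefSeq annotation. Pakap, beside Ptpn3, was lower by 0.54 at 305.5 mg/kg (adjusted p = 0.0132) and by 0.52 at 611 mg/kg (adjusted p = 0.00818). Csrnp2 and Pou6f1 beside Tfcp2, and C1qtnf3 beside Amacr, were called at 0 of 4 doses. The remaining neighbours were not measured under their own symbol.

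Genes around the 5 were put in 7 lists, with 123 measured and tested against vehicle; 1 fell at 76.5 mg/kg, 2 fell at 153 mg/kg, 1 rose and 4 fell at 305.5 mg/kg, and 7 rose and 7 fell at 611 mg/kg. The shares of all genes called higher and lower were 0.408% and 0.338% at 153 mg/kg (0.746% together), 0.753% and 1.47% at 305.5 mg/kg (2.22%), and 5.04% and 2.42% at 611 mg/kg (7.46%). Repeating quantile normalization left 49 higher and 65 lower calls at 153 mg/kg over all genes, against 58 and 48 as first computed.

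Of 28 measured kinases and partners around Sik2 (30 listed), 1 was lower at each of 76.5, 153 and 305.5 mg/kg, and at 611 mg/kg 1 was higher and 2 lower. Nuak2, another Lkb1-dependent kinase of the same family, was 8.97, 8.96, 8.76, 8.90 and 8.84 in vehicle rats, 8.37, 8.21 and 8.14 at 76.5 mg/kg, 8.17, 8.11 and 8 at 153 mg/kg, 8.17, 7.84 and 7.89 at 305.5 mg/kg, and 8.27, 7.84 and 8.28 at 611 mg/kg. It was below every vehicle rat in all 12 treated rats, the opposite direction to Sik2. Nuak2 fell by 0.64, 0.79, 0.92 and 0.75 with rising dose (limma adjusted p = 0.0196, 0.00200, 0.000304 and 0.000740). The call at 76.5 mg/kg was lost without the 3 stand-apart arrays, which leaves 1 rat at that dose (difference -0.52). It was lost with replicate number as a block (adjusted p = 0.0819) and with only the groups compared (0.0738). Leaving out vehicle rat 1 (0.0593), vehicle rat 2 (0.0565) or 76.5 mg/kg rat 2 (0.0817) also ended the call. Sik3, the sister kinase of Sik2, rose by 0.55 at 611 mg/kg (adjusted p = 0.00903) and was 0.11 above vehicle at 76.5 mg/kg (adjusted p = 0.786). Hdac7, a class IIa histone deacetylase, fell by 0.29 at 611 mg/kg (adjusted p = 0.0341), and that call was lost in 11 of 28 other settings, among them without any one 611 mg/kg rat or vehicle rat 1, 3 or 5 (adjusted p 0.0553 to 0.105). The list median was -0.02, 0.00, -0.02 and -0.03 against 0.01, 0.01, 0.01 and 0.00 over all genes. Of 14 measured CREB and CRTC target genes (17 listed), among them the fasting genes Pck1 and Ppargc1a and immediate-early genes such as Fos, 0 were called at any dose. Tat, a gluconeogenic aminotransferase, had the smallest unadjusted p over the 4 doses and stood 1.35 above vehicle at 305.5 mg/kg (adjusted p = 0.0525). Its 3 rats at 305.5 mg/kg were at 9.67, 11.34 and 11.36, against 9.25 to 9.97 in vehicle rats. At 611 mg/kg Tat was 0.26 above vehicle (adjusted p = 0.685). Next by unadjusted p was Pde4b, a cAMP phosphodiesterase, at 0.67 at 305.5 mg/kg (adjusted p = 0.142). By adjusted p, Pck1 at 0.44 (0.0973) and Nr4a3 at -0.22 (0.0998), both at 611 mg/kg, came before Pde4b. The median of these targets was 0.01, 0.07, 0.05 and 0.07 above vehicle with rising dose.

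Among 14 measured non-receptor tyrosine phosphatases other than Ptpn3 (16 listed), 0 were called at 76.5 and 153 mg/kg and 1 rose at each higher dose. That gene was Ptpn21, another FERM-domain phosphatase, with 9.76, 9.67 and 9.97 at 305.5 mg/kg against 8.98, 8.94, 9.16, 8.91 and 9.11 in vehicle rats. It rose by 0.78 at 305.5 mg/kg and by 0.59 at 611 mg/kg (adjusted p = 0.00190 and 0.00722). The list median was 0.02, 0.10, -0.01 and 0.01 with rising dose.

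Of 24 other measured PP2A subunits and regulators (27 listed), whose median was 0.03, 0.07, -0.01 and 0.03 with rising dose, 0 were called below 611 mg/kg, where 1 rose and 1 fell. Strn, a striatin that acts as a regulatory subunit, rose by 0.60 (adjusted p = 0.00773), with 8.30, 8.53 and 8.43 at 611 mg/kg against 7.85, 7.87, 7.80, 7.57 and 8.01 in vehicle rats. Ptpa, a PP2A activator, fell by 0.43 (adjusted p = 0.0259); the call was lost without the stand-apart arrays (0.0803) and in 5 other settings. Ptpa was not called without vehicle rat 3 (0.0527), 611 mg/kg rat 2 (0.140) or 611 mg/kg rat 3 (0.0843). Of 4 measured CP2 and grainyhead factors beside Tfcp2 (5 listed; median -0.03, -0.06, -0.06 and -0.14), 0 were called; the smallest unadjusted p belonged to Grhl3, at -0.31 in 611 mg/kg rats (adjusted p = 0.104), and Tfcp2l1, at -0.32 in 76.5 mg/kg rats (0.451).

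Around Amacr, 25 of 29 listed enzymes and carriers of peroxisomal branched-chain and bile acid side-chain oxidation were measured, and 0 rose at any dose, while 0, 1, 2 and 3 fell with rising dose (median -0.02, -0.05, -0.07 and -0.02). Crot, which makes acylcarnitines in peroxisomes, was 10.99, 10.84 and 10.97 at 305.5 mg/kg and 10.92, 11.25 and 10.99 at 611 mg/kg, against 11.69, 11.94, 11.90, 11.47 and 11.53 in vehicle rats. It fell by 0.77 and 0.65 at these doses (adjusted p = 0.00440 and 0.00739). Crat, carnitine acetyltransferase, fell by 0.53, 0.59 and 0.53 at 153, 305.5 and 611 mg/kg (adjusted p = 0.03001, 0.00658 and 0.00754). Hao1, a peroxisomal glycolate oxidase, fell by 0.30 at 611 mg/kg (adjusted p = 0.0188), a call lost without 611 mg/kg rat 2 (0.124). The call of Crat at 153 mg/kg was lost without any one of the 153 mg/kg rats, or vehicle rat 1, 2 or 4 (adjusted p 0.0511 to 0.166). Of 14 measured peroxins (17 listed), which build peroxisomes and had a median of 0.01, 0.10, 0.04 and 0.17, 0 were called at 76.5 and 153 mg/kg, 1 fell at 305.5 mg/kg, and 4 rose and 1 fell at 611 mg/kg. Pex26, Pex2, Pex7 and Pex16 rose by 0.55, 0.41, 0.39 and 0.31 at 611 mg/kg (adjusted p = 0.0124, 0.0140, 0.0407 and 0.0258), and Pex11a fell by 0.49 at 305.5 mg/kg and 0.43 at 611 mg/kg (0.0456 and 0.0441). Their calls at 611 mg/kg were lost in 2, 3, 13, 7 and 17 of 29 other settings for Pex26, Pex2, Pex7, Pex16 and Pex11a, and that of Pex11a at 305.5 mg/kg in 15. Without 611 mg/kg rat 2, the array with the large GAPDH difference, Pex26 (adjusted p = 0.0575), Pex2 (0.0972), Pex7 (0.196) and Pex11a (0.151) were not called, and the mean over its probe sets left Pex16 at 0.07 (0.687). Pex16 was also not called without 611 mg/kg rat 1 (0.1002) or rat 3 (0.0553), or without vehicle rat 1 (0.0507) or rat 5 (0.0603). Pex7 was not called without vehicle rat 1, 4 or 5, 153 mg/kg rat 2, 305.5 mg/kg rat 3 or 611 mg/kg rat 3 (adjusted p 0.0526 to 0.132). Leaving out any one of 11 rats ended the call of Pex11a at 305.5 mg/kg (0.0508 to 0.153), and likewise at 611 mg/kg (0.0521 to 0.151).

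**Figure D4:**
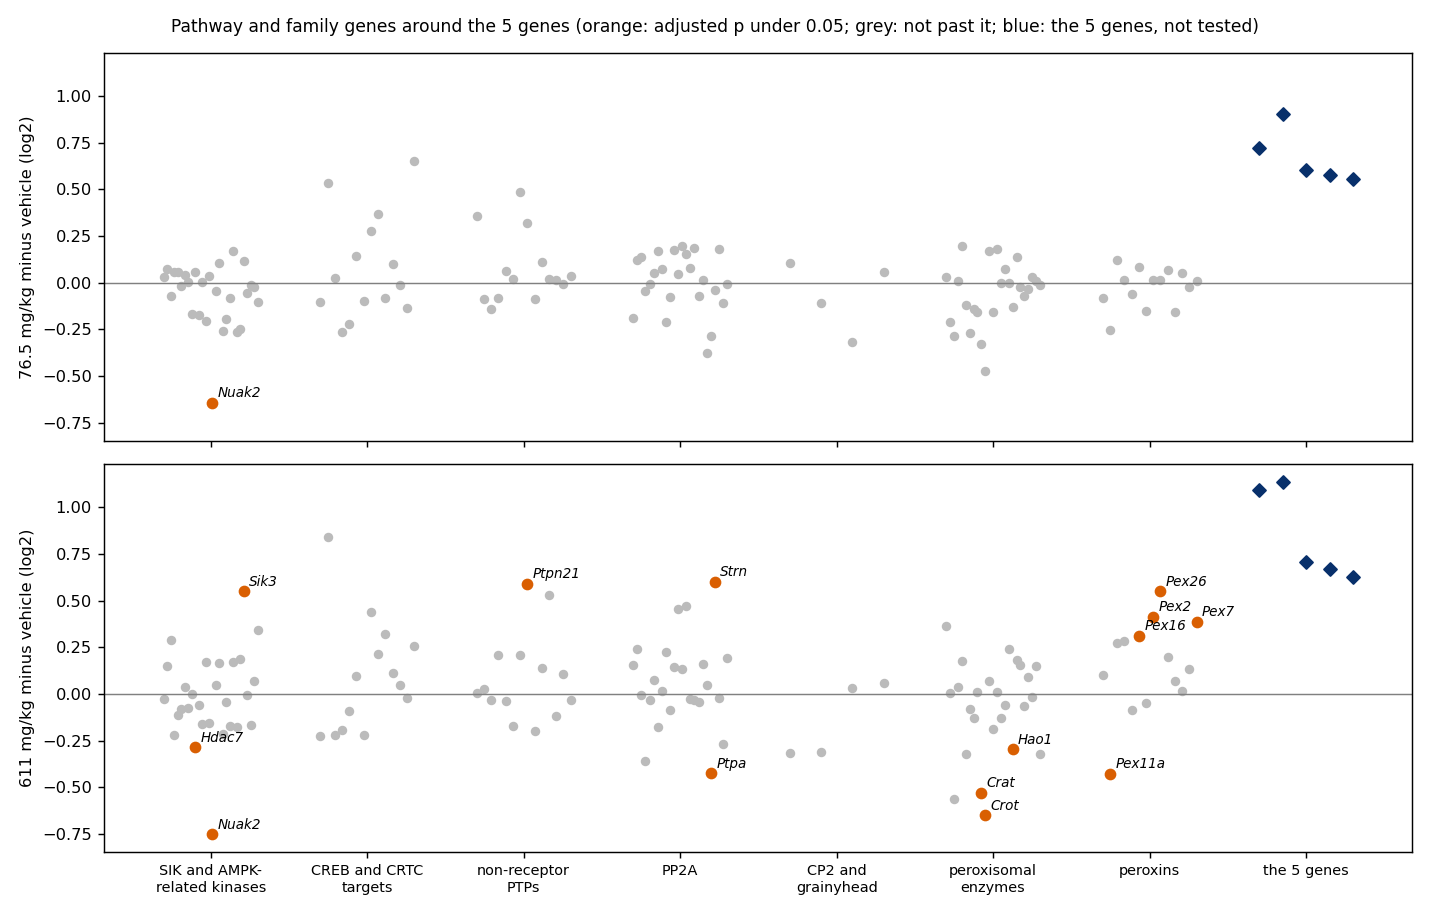
Difference from vehicle (log2) of the measured genes of the 7 lists and of the 5 genes, at 76.5 mg/kg and 611 mg/kg, with genes past an adjusted p of 0.05 in orange. At 76.5 mg/kg 1 list gene, Nuak2, passed the test, at -0.64, while the 5 genes lie between 0.55 and 0.90.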

How the data were processed

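Liver RNA of 17 male rats was hybridised to Affymetrix arrays, 1 array a rat. The deposited values are on a log2 scale and were made by the authors with RMA (background correction, quantile normalization, probe-set summary), per the submitters' processing notes; the software version is not given in the sources used here. Values ran from 2.61 to 15.4, and arrays have no read depth, so the number of rats limits precision. Of 31099 probe sets, 57 controls were left out; 20826 had 1 gene symbol, 436 several and 9780 none. The brightest probe set by mean over 17 arrays stood for each of 14217 genes.

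limma 3.58.1 in R 4.3.3 fitted 5 group means to all genes (lmFit, eBayes with trend), with Benjamini-Hochberg adjustment over 14217 genes and an adjusted p under 0.05 as a call; steps were tested on simulated data. Contrasts were each dose minus vehicle, the slope over 4 doses and 611 minus 76.5 mg/kg. The 5 genes, the gene lists and the tests were chosen with earlier results of these data known. Named genes were the 5 members, the 3 genes most like each by correlation, the genes called in each list (where none, the 2 with the smallest unadjusted p), the nearest genes on each side, and Ces2c, Nr1d1, Dbp; Tbx3, Oaf, Acbd6, Pck1 and Nr4a3 were named after their values were seen. Sequences are from RefSeq (GRCr8). Replicate numbers were not used to pair rats. Over 30 same-numbered pairs, deviations from group means correlated between -0.259 and 0.399, with a median of 0.011 against -0.015 in other pairs between groups. Whether rats of the same number shared a batch is not settled by these values. Alternatives covered probe-set choice, dim genes, normalization, array quality, the variance model, the samples fitted and leaving out each rat.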

Additional observations from a re-analysis of the deposited data

How the results depend on the processing

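The differences of the 5 genes from vehicle stayed above 0 in 580 of 580 other settings. Of these, 571 moved by less than the spread between rats and 9 by more. The genes were chosen on these differences and the settings reuse the same rats, so the counts are no independent support. Some settings, such as the variance model or leaving out a rat of another dose, could not change a difference. The between-dose tests of the 5 genes reached an adjusted p of 0.05 in 0 of 295 (lowest 0.0705), and 10 slopes changed sign: Amacr (-0.003) became 0.0047 with arrays centred on the median, 0.0090 with quantile normalization repeated, 0.038 with array weights, 0.035 without the 3 stand-apart arrays, 6.57e-05 per mg/kg, and, without 1 rat, ran from -0.022 to 0.012; Ptpn3 ran from -0.00080 (without 76.5 mg/kg rat 2) to 0.147. None of these slopes passed the test. Counts of all genes called moved more. At 76.5, 153, 305.5 and 611 mg/kg they were 38, 106, 316 and 1060, for the slope 147 and for 611 minus 76.5 mg/kg 215. Array weights gave 696, 398, 1114, 1884, 723 and 1058. Without the 3 arrays they were 11, 314 and 778 at the 3 lower doses, 12 for the slope and 8 for 611 minus 76.5 mg/kg. With the GAPDH difference as a covariate they were 58, 199 and, for 611 minus 76.5 mg/kg, 110; with only the groups compared 6, 329, 638, 48 (slope) and 9. Of 15 rats with a shared number, 6 correlated best with a rat of their own number in another group. A replicate block gave 15, 49, 198 and 387 against vehicle, 105 for the slope and 149 for 611 minus 76.5 mg/kg. Leaving out 1 rat gave 11 to 93, 29 to 187, 142 to 525 and 426 to 1488 against vehicle, 62 to 237 for the slope and 60 to 321 for 611 minus 76.5 mg/kg. The lowest counts came without rat 2 of the dose set against vehicle, and without 611 mg/kg rat 2 for the last 2 tests; the highest came without 76.5 mg/kg rat 3 at 153, 305.5 and 611 mg/kg and without 76.5 mg/kg rat 1 for the rest. Over all genes, 120 of 175 counts stayed within 1.5 times and 55 did not; of the list counts, 712 of 812 did. The cause of these moves was not tested. With 3 rats a dose, a slope as small as that of Ptpn3 or Tfcp2 had an interval on both sides of 0.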

Other observations

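Tbx3, a T-box transcription factor, was the other gene outside the clock and drug-metabolism groups that was called higher at all 4 doses; it was named after its values were seen. Its brightest probe set stood 1.15, 1.15, 1.12 and 0.90 above vehicle with rising dose (SE 0.19), with all 12 treated rats above all vehicle rats by at least 0.40. The slope among treated rats was -0.08 per dose step (95% interval -0.22 to 0.07; limma adjusted p = 0.645). Its other 3 probe sets differed less: 1381464_at by 0.16, 0.14, 0.24 and 0.12, with 11 of 12 treated rats above all vehicle rats, 1390627_a_at by 0.08, 0.11, 0.38 and -0.09, and 1377230_at by 0.06, -0.05, 0.10 and -0.04, so the 4 probe sets of Tbx3 did not move alike.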
